A study of Mus musculus musculus x M. m. domesticus and Mus musculus musculus x Mus musculus castaneus and Mus musculus domesticus with 42 samples.

Results

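Cytochrome P450 families 1 to 4 were represented on the array by 69 probe sets of 56 genes, out of 45037 probe sets in all. They were chosen by name: every probe set with a single platform symbol made of Cyp, a digit from 1 to 4 and a letter. The set held 5 probe sets of Cyp1 genes, 1 of Cyp2a, 6 of Cyp2b, 11 of Cyp2c, 10 of Cyp2d, 14 of other Cyp2 genes, 5 of Cyp3a, 4 of Cyp4a and 13 of other Cyp4 genes, among them the pseudogene Cyp4f41-ps. A further 4 probe sets that matched the pattern carried several symbols and were left out.

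Cytochromes P450 are haem-containing monooxygenases that insert oxygen into their substrates with electrons passed on by the reductase Por. The first families clear drugs, plant compounds and pollutants in hepatocytes, and many of their members also oxidise steroids, retinoids, arachidonic acid or other fatty acids. In the liver their transcription is set by ligand-sensing receptors, such as the aryl hydrocarbon receptor for Cyp1a, CAR and PXR for Cyp2b, Cyp2c and Cyp3a and PPAR alpha for Cyp4a. Several mouse genes of the Cyp2b, Cyp2d, Cyp3a and Cyp4a groups differ between the sexes, following the pattern of growth hormone release.

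RNA of brain, liver and testis of 14 male house mice was hybridised to 42 one-colour Affymetrix arrays. The mice were wild-derived inbred M. m. domesticus (45 days old), M. m. musculus (47 days) and M. m. castaneus (47 days), and F1 males of both reciprocal crosses of musculus with each of the others. These were, with the mother named first, musculus x domesticus (53 days), domesticus x musculus (50 days), musculus x castaneus (53 days) and castaneus x musculus (54 days). Each of the 7 genotypes had 2 males, so both males are given in place of a standard deviation. Each subspecies was 1 inbred line, all mice were male, and age and genotype cannot be told apart except between musculus and castaneus and between the pair of F1 that have a musculus mother. The labels call the 2 males of a genotype biological replicates; the p-values measure the spread between such males.

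The values are MAS5 signals, intensities whose trimmed mean per array lay between 496.87 and 498.59. A signal also depends on the probes, so levels were compared between samples and not between genes. Differences below are on the log2(signal + 31) scale, which understates changes of dim probe sets, with the standard error of a limma fit over the 14 arrays of a tissue. A difference was called at a Benjamini-Hochberg adjusted p under 0.05 over the 27022 probe sets tested in that tissue; 57 of the 69 P450 probe sets passed the filter on low signal in liver, 25 in brain and 29 in testis. The replicate males of a group correlated at 0.958 to 0.981 over all probe sets. In whole-tissue RNA, fewer cells of a type and less RNA per cell cannot be told apart. The summed signal of 4 hepatocyte markers was 82246 to 118712 on the liver arrays, 12132 to 17965 on the brain arrays and 117 to 2292 on the testis arrays. The list includes Ttr, which the choroid plexus of the brain also makes, so it is not specific to hepatocytes there.

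Most of these genes gave their highest signal in liver. Of the 69 probe sets, 54 had their highest mean in liver, 7 in brain and 8 in testis, and 30 reached a mean of 1000 in liver against 1 in testis and 0 in brain. The liver means included 27820 for Cyp2e1, which oxidises ethanol and other small molecules, against 126 in brain and 229 in testis. Cyp3a11, a broad drug-metabolising enzyme, averaged 24780 in liver, 115 in brain and 98.2 in testis. In the fit over all 42 arrays, where a call also needed an absolute difference of at least 1, 38 of 48 probe sets were higher in liver than in brain (15 percent of all probe sets) and 1 was lower (23.7 percent of all). Likewise 40 were higher in liver than in testis (22.8 percent of all) and 1 was lower (23.6 percent of all). The filter on low signal favours such counts. Of the 48, 0 were below the filter of liver, while 14 were below that of both brain and testis and so had to be higher in liver. Others were below the filter of brain alone or of testis alone, as only 25 and 29 of the 69 probe sets passed there. Each count was therefore partly fixed by the filter.

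The exceptions were few. Cyp2j9 was the only member lower in liver than in brain, with a difference of -1.91 ± 0.10 (adjusted p = 1.4e-16). It averaged 884 in brain, 20.1 in testis and 247 in liver. Cyp4f39, a fatty acid omega-hydroxylase, was the only member lower in liver than in testis, with a difference of -1.55 ± 0.09 (adjusted p = 2.53e-15), with means of 199 in liver, 736 in testis and 132 in brain. Cyp4x1 averaged 18.4 in testis, 57.1 in liver and 395 in brain, and the same filter left it out of the tissue fit. Between testis and brain, 7 of 48 probe sets were higher in testis (19.7 percent of all) and 8 were lower (28.4 percent of all). Among the 7, Cyp2d26 had the largest difference, 4.82 ± 0.09 (adjusted p = 2.9e-28), with a testis mean of 1441, the only one above 1000 outside the liver.

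**Figure D1:**
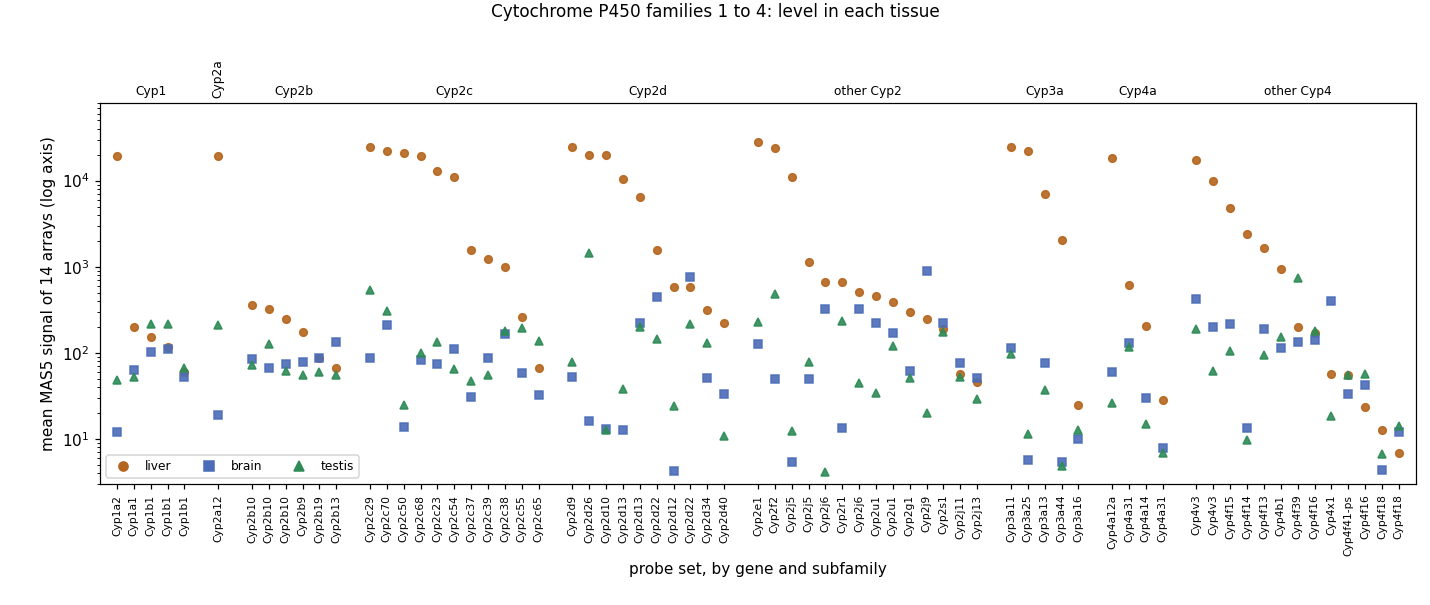
Mean MAS5 signal over the 14 arrays of each tissue (log axis) for the 69 probe sets, by subfamily; circles are liver, squares brain and triangles testis. The liver mark lies highest for 54 probe sets, and the exceptions include Cyp2j9 and Cyp4x1 (brain) and Cyp4f39 (testis); heights of different genes are not comparable.

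In liver, the subspecies comparison asks which P450 genes differ between the parents of each cross. Between domesticus and musculus, 9 of 57 probe sets were higher in domesticus (3.16 percent of all) and 4 were lower (3.01 percent of all), from 9 genes in all. That is 13 probe sets, or 22.8 percent, where 6.17 percent of all probe sets were called. Between castaneus and musculus, 9 were higher in castaneus (3.14 percent of all) and 6 lower (3.41 percent of all), from 15 genes, where 6.55 percent of all were called. The median difference was 0.05 over the P450 probe sets and -0.05 over all in domesticus, and 0.10 and -0.06 in castaneus. Both comparisons use the same musculus arrays, so their values are only set side by side.

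Bright and dim probe sets were both among the calls. Of the 19 probe sets with a mean of at least 10000, 3 were called in domesticus (6.17 percent of all probe sets) and 1 in castaneus (6.55 percent of all), with differences between -1.66 and 0.93 in domesticus and between -0.65 and 0.75 in castaneus. The caffeine-metabolising Cyp1a2 differed by -0.06 ± 0.18 in domesticus (adjusted p = 0.915) and -0.18 ± 0.18 in castaneus (adjusted p = 0.666). For Cyp3a11 the values were -0.13 ± 0.18 (adjusted p = 0.794) and 0.03 ± 0.18 (adjusted p = 0.957). The largest MAS5 signal of any member was 36267, and the largest on the arrays was 49918.

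**Figure D2:**
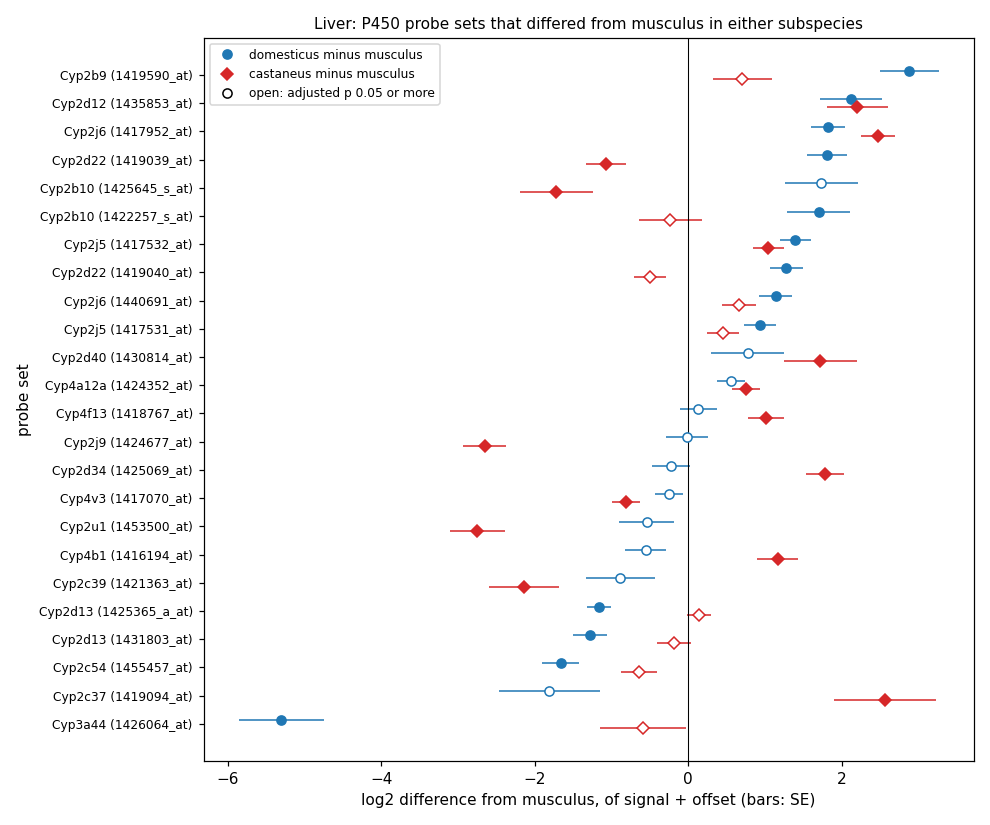
Log2 difference from musculus in liver (signal + 31, bars 1 standard error) for the 24 probe sets called in domesticus (circles) or castaneus (diamonds); open marks missed an adjusted p of 0.05. Cyp3a44 stands at -5.30 in domesticus and -0.60 in castaneus, and Cyp2d22 and Cyp2b10 have called or open marks on opposite sides of 0.

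In the Cyp3a group, which carries out much steroid and drug hydroxylation, Cyp3a44 alone was called. It is known as a female-predominant gene of mouse liver. Its probe set (1426064_at) read 9385 and 3429 in the musculus males, 125 and 103 in domesticus, and 4567 and 3075 in castaneus. The 2 musculus males differed widely, yet both lay above both domesticus males. The difference from musculus was -5.30 ± 0.56 in domesticus (adjusted p = 8.83e-05), and between -6.03 and -4.58 when 1 male was left out. In castaneus it was -0.60 ± 0.56 (adjusted p = 0.632).

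In the F1 males of the domesticus cross the Cyp3a44 signal was near that of domesticus on the linear scale, though above both domesticus males. Cyp3a44 read 234 and 208 in musculus x domesticus males and 805 and 312 in domesticus x musculus males, all far under both musculus males. On a linear scale where musculus is 0 and domesticus is 100, the F1 means stood at 98.3 and 92.9. The F1 means were 221 and 558.5, against 114 in domesticus and 6407 in musculus. Against the parental mean on the log2 scale the F1 differed by -1.31 ± 0.40 (adjusted p = 0.0621), and against the parental mean of the linear signals by -2.995 ± 0.475 (adjusted p = 0.017). The call therefore holds only on the linear scale, where 1.68 percent of the probe sets tested were called. In the castaneus cross the F1 males read 3256 and 994 (musculus x castaneus) and 827 and 1267 (castaneus x musculus), with a mean below both parental means but an overlap with the castaneus males, and the test for a value outside both parents gave an adjusted p of 1 (unadjusted p = 0.0108).

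The Cyp2b group, the classical targets of phenobarbital and CAR, had 2 of 5 tested probe sets higher in domesticus (3.16 percent of all) and 0 lower (3.01 percent of all). Cyp2b9, another female-predominant gene, read 30 and 70 in musculus, 432 and 685 in domesticus and 128 and 72 in castaneus. Domesticus males stood well apart from all other males, with a difference of 2.88 ± 0.38 (adjusted p = 0.000571). The F1 males of that cross read 168 and 159 and 202 and 150, which puts them at 22.3 and 24.8 on the parental scale, and they differed from the log2 parental mean by -0.09 ± 0.27 (adjusted p = 0.881).

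Cyp2b10 had 3 probe sets. On 1422257_s_at the musculus males read 77 and 124 and the domesticus males 508 and 297, a difference of 1.70 ± 0.41 (adjusted p = 0.0266). The others gave 1.73 ± 0.47 (adjusted p = 0.0502) and 1.20 ± 0.49 (adjusted p = 0.197). On the first probe set the F1 males read 440 and 734 (musculus x domesticus) and 513 and 379 (domesticus x musculus). All 4 were above both musculus males, at 161 and 114 on the parental scale, and the F1 mean exceeded the log2 parental mean by 1.19 ± 0.29 (adjusted p = 0.0228). It was the only member called among the 13 (8.21 percent of all). The parental call was lost without domesticus male 1 (1.34), musculus male 1 (1.44) or musculus male 2 (1.96), and the midparent call without domesticus male 1 (1.37), domesticus male 2 (1.01), musculus male 1 (1.06), musculus male 2 (1.32), musculus x domesticus male 2 (1.02) or domesticus x musculus male 1 (1.09), and on the linear scale (0.95). In castaneus, 1425645_s_at alone was called, by -1.72 ± 0.47 (adjusted p = 0.049), against -0.23 ± 0.41 and -0.26 ± 0.49 on the others; it was not called in any of the 8 alternative analyses, with values from -2.17 to -0.99.

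**Figure D3:**
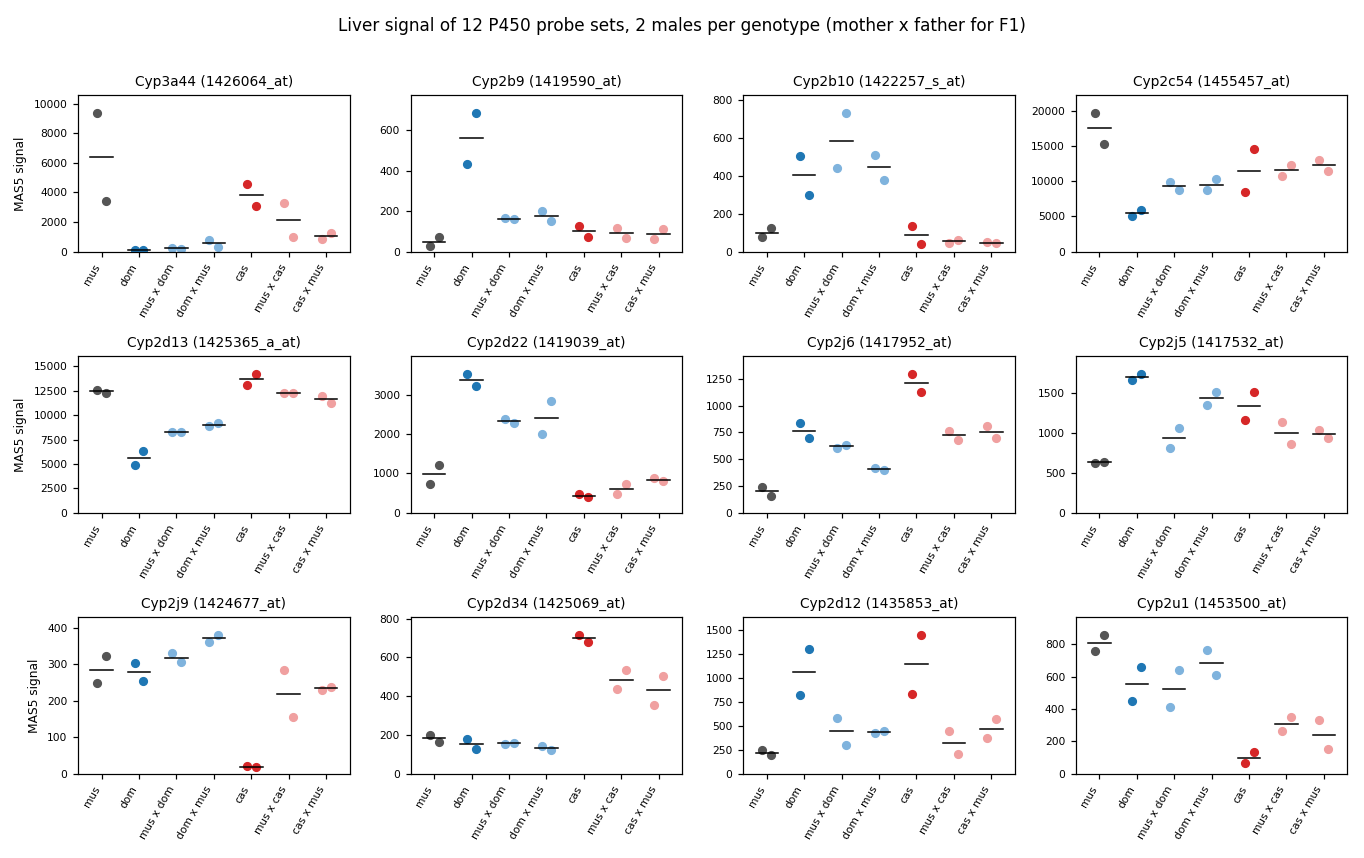
MAS5 signal in liver of 12 probe sets, 1 point per male with the mean of the 2 males as a line; mus, dom and cas are the subspecies and F1 are named mother x father. The F1 of the domesticus cross lie near domesticus for Cyp3a44, above or at domesticus for Cyp2b10, and between the parents for Cyp2b9, Cyp2c54 and Cyp2d22.

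The Cyp2d group is related to a major human drug-metabolising enzyme, and 3 of its 10 probe sets were higher and 2 lower in domesticus (3.16 and 3.01 percent of all), and 3 higher and 1 lower in castaneus (3.14 and 3.41 percent of all). Cyp2d22 read 735 and 1226 in musculus, 3543 and 3241 in domesticus and 464 and 407 in castaneus on 1419039_at. The 3 subspecies did not overlap: domesticus was higher than musculus by 1.80 ± 0.26 (adjusted p = 0.00106) and castaneus differed by -1.08 ± 0.26 (adjusted p = 0.0268). The second probe set gave 1.28 ± 0.21 (adjusted p = 0.00262) and -0.50 ± 0.21 (adjusted p = 0.205). The castaneus call was lost without musculus male 2 (-0.72), castaneus male 1 (-1.16) or castaneus male 2 (-0.99). F1 males of the domesticus cross read 2380 and 2275 and 2010 and 2834, at 55.9 and 59.8 between the parents.

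Cyp2d13 was lower in domesticus on both of its probe sets. The musculus males read 12629 and 12263 on 1425365_a_at and the domesticus males 4856 and 6275, a difference of -1.17 ± 0.16 (adjusted p = 0.000583), and the second gave -1.28 ± 0.22 (adjusted p = 0.00326). Castaneus read 13113 and 14256, a difference that was not called. Cyp2d12 was higher in both subspecies, at 240 and 190 in musculus, 817 and 1299 in domesticus and 824 and 1447 in castaneus. The differences were 2.12 ± 0.40 (adjusted p = 0.00645) and 2.20 ± 0.40 (adjusted p = 0.00509). The first was lost without domesticus male 2 (1.79) or musculus male 2 (1.97), and the second without castaneus male 2 (1.81).

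Cyp2d34 and Cyp2d40 were higher in castaneus. Cyp2d34 read 717 and 678 in castaneus against 199 and 164 in musculus and 177 and 127 in domesticus. Castaneus exceeded musculus by 1.78 ± 0.25 (adjusted p = 0.000756), and the call was made in all 8 alternatives. The castaneus-cross F1 males lay between, at 434 and 534 and 356 and 501. Cyp2d40 read 405 and 574 against 165 and 93, a difference of 1.72 ± 0.47 (adjusted p = 0.0489) that was lost in 6 of 8 alternatives, including without musculus male 1 (2.05), musculus male 2 (1.39), castaneus male 1 (1.96) or castaneus male 2 (1.48).

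Among the Cyp2c genes, enzymes of arachidonic acid, retinoid and drug oxidation, Cyp2c54 was lower in domesticus. It read 19680 and 15242 in musculus, 5032 and 5883 in domesticus and 8386 and 14587 in castaneus. The difference in domesticus was -1.67 ± 0.24 (adjusted p = 0.000965), with all F1 males of that cross between 8677 and 10248. Cyp2c39 was lower in castaneus, at 377 and 699 against 3026 and 1868 in musculus, by -2.14 ± 0.45 (adjusted p = 0.0119). This call was lost without musculus male 1 (-1.80) or castaneus male 1 (-1.72).

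Cyp2c37 varied widely within a group. The castaneus males read 1551 and 11838 and the musculus males 1029 and 478, a difference of 2.56 ± 0.66 (adjusted p = 0.0357). Without castaneus male 2 it was 1.11 and not called, and the call was also lost without musculus male 1 (3.09) or musculus male 2 (2.03). The F1 males read 336 and 297 with a musculus mother and 2462 and 2572 with a castaneus mother. These reciprocal F1 did not overlap and differed by -2.88 ± 0.66, with an unadjusted p of 0.000804 and an adjusted p of 0.418 in the limma fit.

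Of the Cyp2j genes, Cyp2j5 and Cyp2j6 were higher in both subspecies and Cyp2j9 was lower in castaneus. Cyp2j6 read 244 and 152 in musculus, 837 and 695 in domesticus and 1300 and 1127 in castaneus on 1417952_at. The differences were 1.82 ± 0.22 (adjusted p = 0.000259) and 2.47 ± 0.22 (adjusted p = 2.26e-05). The second probe set gave 1.14 ± 0.22 (adjusted p = 0.00689), lost without domesticus male 1 (0.90) or musculus male 1 (1.10), and 0.66 ± 0.22 (adjusted p = 0.0981).

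Cyp2j5, which has a bright and a dim probe set, read 9975 and 6834 in musculus and 17563 and 14116 in domesticus on the bright one, 1417531_at. That difference was 0.93 ± 0.21 (adjusted p = 0.0174), lost without domesticus male 1 (0.77) or musculus male 2 (0.66). On 1417532_at the differences were 1.39 ± 0.20 in domesticus (adjusted p = 0.00114) and 1.04 ± 0.20 in castaneus (adjusted p = 0.00795). The latter was lost without musculus male 1 (1.03) or castaneus male 2 (0.86), and the bright probe set gave 0.45 ± 0.21 (adjusted p = 0.248).

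Cyp2j9 was nearly off in the castaneus liver, at 21 and 17, against 249 and 322 in musculus and 305 and 255 in domesticus. The difference was -2.65 ± 0.28 (adjusted p = 8.07e-05). The F1 males of the castaneus cross read 284 and 156 and 230 and 238, at 24.6 and 19.3 on the parental scale and hence nearer musculus. They exceeded the log2 parental mean by 1.02 ± 0.20 (adjusted p = 0.00528), and Cyp2j6 did so by 0.54 ± 0.16 (adjusted p = 0.0402); these were the 2 calls among the 15 probe sets (11.9 percent of all). On the linear scale the values were 0.48 and 0.07 and neither was called. The liver of musculus x castaneus male 2 had a summed signal of 41600 for 5 exocrine pancreas genes, where the other liver arrays had 401 to 4179. Without that array the Cyp2j6 excess was 0.58 and not called, while Cyp2j9 kept its call; the Cyp2j6 call was also lost without musculus male 2 (0.39), castaneus male 2 (0.49), musculus x castaneus male 1 (0.49), castaneus x musculus male 1 (0.49) or castaneus x musculus male 2 (0.59).

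Cyp2u1, a fatty acid hydroxylase, was lower in castaneus on 1453500_at, at 65 and 131 against 761 and 860 in musculus. The difference was -2.75 ± 0.36 (adjusted p = 0.000467), while the second probe set gave -0.50 ± 0.32 (adjusted p = 0.441). As with Cyp2b10 and Cyp1b1, the probe sets of 1 gene differed in size, and the part of sequence differences between the subspecies under the probes was not tested.

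Family 4, mostly fatty acid hydroxylases, had 4 calls in liver, all in castaneus: 1 of 3 tested Cyp4a probe sets was higher, and of 8 other Cyp4 probe sets 2 were higher and 1 lower (3.14 and 3.41 percent of all). Cyp4a12a, a male-predominant hydroxylase that makes 20-HETE, read 12095 and 15601 in musculus and 23052 and 23099 in castaneus, a difference of 0.75 ± 0.18 (adjusted p = 0.0283). It was lost without musculus male 1 (0.56), castaneus male 1 (0.75) or castaneus male 2 (0.75). Cyp4b1 read 816 and 700 against 1362 and 2194, a difference of 1.16 ± 0.27 (adjusted p = 0.0213), lost without musculus male 1 (1.27), musculus male 2 (1.06) or castaneus male 2 (0.82). Cyp4f13, of the leukotriene-hydroxylating Cyp4f group, gave 1.01 ± 0.24 (adjusted p = 0.0226), and was not called when any 1 of the 4 parental males was left out (musculus male 1 0.99, musculus male 2 1.03, castaneus male 1 0.99, castaneus male 2 1.03). Cyp4v3 was lower, by -0.81 ± 0.18 on 1417070_at (adjusted p = 0.0185) and -0.24 ± 0.18 on the second (adjusted p = 0.529); its call was lost without musculus male 1 (-0.87), musculus male 2 (-0.75) or castaneus male 2 (-0.68).

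The F1 means of the P450 probe sets called between the parents mostly lay between them. Of the 13 probe sets called in the domesticus cross, 12 had an F1 mean inside the parental range and 10 fell between 25 and 75 on the parental scale, with a median of 55.2. In the castaneus cross it was 15 and 10 of 15, with a median of 51.1. No such share over all probe sets with a parental call is available here, so these counts do not set P450 genes apart. No P450 probe set without a parental call was called outside both parents in any tissue by limma (0 percent of all in the domesticus cross and in the castaneus-cross brain, 0.00396 in the castaneus-cross liver and 1.52 in the castaneus-cross testis). At an unadjusted p under 0.05 there was 1 in liver in each cross (0.517 percent of all in the domesticus cross and 0.927 in the castaneus cross). There was also 1 in testis in the castaneus cross (12.3 percent of all). Reciprocal F1 livers gave 0 calls in either cross (0.0888 and 0.037 percent of all). Of the 57 probe sets, 5 and 4 had an unadjusted p under 0.05 (9.62 and 3.51 percent of all).

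The lists of related genes, from which the calls of the P450 genes themselves are not repeated, were counted in liver by gene, with 1 probe set for each. Their counts stand beside 6.17 percent of all probe sets called in domesticus and 6.55 percent in castaneus. Of 14 redox partners and haem synthesis genes, 2 were higher in domesticus and 0 lower: Ephx2, which hydrolyses the epoxides that P450 enzymes make, by 1.54 ± 0.24 (adjusted p = 0.00157), and Fech, the last enzyme of haem synthesis, by 0.69 ± 0.15 (adjusted p = 0.0159). In castaneus Ephx2 alone was called, by 1.25 ± 0.24 (adjusted p = 0.00628). Of 19 receptors and transcription factors, only Ppara was called, higher in domesticus by 1.08 ± 0.23 (adjusted p = 0.0143), and 0 were called in castaneus. Of 11 growth hormone axis genes, 0 were called in domesticus and Ghr, the hormone's receptor, was higher in castaneus by 0.67 ± 0.18 (adjusted p = 0.0399).

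The same shares apply to other targets of these receptors. Of 9 CAR and PXR targets outside the P450 families, 1 was higher and 2 lower in domesticus: the carboxylesterase Ces2a by 3.64 ± 0.41, the bile conjugate pump Abcc2 by -2.33 ± 0.32 and the organic anion carrier Slco1a4 by -2.43 ± 0.54. In castaneus Ces2a alone was called (3.49 ± 0.41). PPAR alpha targets were 1 higher and 1 lower of 18 in domesticus, and 2 higher and 3 lower in castaneus. Of 2 AHR targets tested, Nqo1 was lower in domesticus (-1.12 ± 0.24) and 0 were called in castaneus. Of 9 pericentral hepatocyte genes 0 were called in either, and of 8 periportal ones 2 were lower in domesticus and 0 were called in castaneus. The other female-predominant liver genes had 0 higher and 3 lower of 7 in domesticus and 1 and 1 in castaneus, and the other male-predominant ones 2 higher and 1 lower of 6 and 3 and 1. Of the female-predominant P450 genes, Cyp2b9 and Cyp2b10 were called higher in domesticus, the latter on 1422257_s_at alone, and Cyp3a44 was called lower. Cyp4a14 was not called there (0.11 ± 0.97, adjusted p = 0.974), and Cyp2b13 and Cyp3a16 were below the liver filter. In castaneus Cyp2b10 alone was called, lower on 1425645_s_at. The male-predominant Cyp2d9 was not called in domesticus (-0.06 ± 0.19, adjusted p = 0.925) or castaneus (0.28 ± 0.19, adjusted p = 0.461). Cyp4a12a was called in castaneus only.

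Markers of other liver cells also varied. The summed signal of 6 Kupffer cell genes was 9270 and 10886 in castaneus and 7172 and 7765 in domesticus against 5222 and 5642 in musculus. That of 5 stellate cell genes was 11164 and 10512 in domesticus and 7286 and 8169 in castaneus against 6301 and 6475 in musculus. For 5 endothelial genes it was 5848 and 5322 in domesticus and 5701 and 9352 in castaneus against 4135 and 4585. For 4 lymphocyte genes it was lower, at 1118 and 1609 in domesticus and 744 and 1096 in castaneus against 1724 and 4781. Hepatocyte markers were 115861 and 104731 in musculus, 106222 and 115218 in domesticus and 118712 and 117763 in castaneus, with 0 of 4 called in either comparison. The part of these cell markers in the P450 differences was not tested.

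In brain, 3 of 25 P450 probe sets were lower in domesticus (2.48 percent of all) and 0 higher (3.26 percent of all), where 5.75 percent were called either way. In castaneus 3 were higher (3.12 percent of all) and 2 lower (2.95 percent of all), where 6.07 percent were called either way. Cyp2j6 read 395 and 363 in musculus, 139 and 133 in domesticus and 590 and 530 in castaneus on 1417952_at. Domesticus differed by -1.30 ± 0.17 (adjusted p = 0.000642) and the F1 stood at 81.9 and 80.5, near domesticus. The second probe set gave -1.08 ± 0.18 (adjusted p = 0.00355), lost without musculus male 1 (-0.89). Cyp2u1 read 71 and 32 in domesticus and 116 and 156 in castaneus against 400 and 379 in musculus, differences of -2.39 ± 0.27 (adjusted p = 0.000225) and -1.34 ± 0.27 (adjusted p = 0.0107). The second Cyp2u1 probe set gave -0.80 ± 0.23 (adjusted p = 0.0651) and -0.24 ± 0.23 (adjusted p = 0.642).

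The other castaneus calls in brain were Cyp2c70, a bile acid hydroxylase in liver, at 365 and 319 against 158 and 128 (1.10 ± 0.20, adjusted p = 0.00632), Cyp4v3 on both probe sets (1.05 ± 0.20, adjusted p = 0.00857, and 0.79 ± 0.19, adjusted p = 0.0316) and the retinoid-metabolising Cyp2s1 (-0.68 ± 0.18, adjusted p = 0.0484). None of the 5 castaneus calls held when each male was left out in turn: 1 was left without musculus male 1, 1 without musculus male 2, 0 without castaneus male 1 and 3 without castaneus male 2. The summed signal of 7 choroid plexus genes was 3584 and 3559 in domesticus, 2878 and 3024 in castaneus and 2073 and 1937 in musculus. The sum of 4 astrocyte genes was 13282 and 11532 in domesticus, 13108 and 13099 in castaneus and 9179 and 7509 in musculus. The sum of 4 neuron genes was 42356 and 43174 in domesticus, 31149 and 32281 in castaneus and 39512 and 40932 in musculus. The part of these cell markers was not tested. No F1 or reciprocal difference of a P450 gene was called in brain by limma (midparent 8.76 and 8.9 percent of all, reciprocal 0.0222 and 0.0111). An unadjusted p under 0.05 was found for 2 of 3 and 0 of 5 midparent values (22.9 and 27.1 percent of all tested). The same held for 1 of 25 reciprocal values in each cross (4.12 and 3.95 percent of all).

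Liver and brain disagreed for Cyp2j6. Domesticus exceeded musculus in liver and fell short of it in brain, on both probe sets and without overlap of the males in either tissue. The liver difference minus the brain difference was 3.12 ± 0.25 (adjusted p = 1.74e-09) on 1417952_at and 2.22 ± 0.33 (adjusted p = 6.3e-05) on 1440691_at. This test of liver against brain over 22347 probe sets was chosen after the values of Cyp2j6 were seen; it called 5 of 23 P450 probe sets in domesticus (4.57 percent of all) and 7 in castaneus (4.81 percent). In castaneus the Cyp2j6 difference was 2.47 in liver and 0.53 ± 0.17 in brain (adjusted p = 0.0977), apart by 1.94 ± 0.25 (adjusted p = 1.19e-05). Cyp4v3 was lower in the castaneus liver and higher in the castaneus brain on 1417070_at, apart by -1.86 ± 0.28 (adjusted p = 0.000101). Cyp2j9 differed by -2.65 in the castaneus liver and by -0.70 ± 0.23 in brain (adjusted p = 0.107), apart by -1.95 ± 0.38 (adjusted p = 0.00192).

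**Figure D4:**
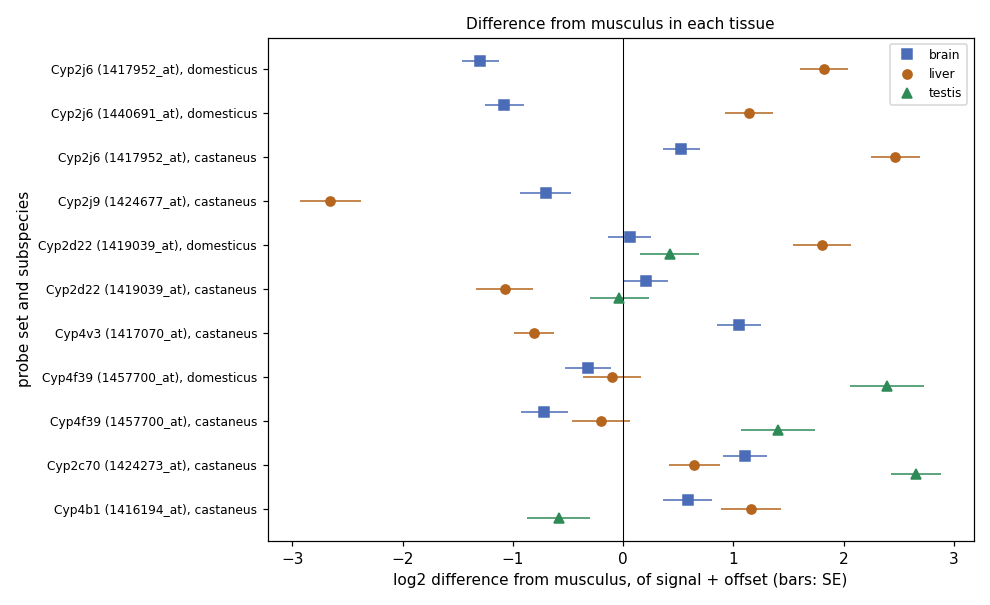
Log2 difference from musculus (signal + 31, bars 1 standard error) by tissue for 11 pairs of probe set and subspecies; squares are brain, circles liver and triangles testis, and a tissue where the probe set was not tested has no mark. Cyp2j6 in domesticus and Cyp4v3 in castaneus lie on opposite sides of 0 in liver and brain, and Cyp4f39 and Cyp2c70 lie farthest from 0 in testis.

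In testis, 5 of 29 P450 probe sets were higher (6.95 percent of all) and 3 lower (5.86 percent of all) in domesticus, where 12.8 percent were called either way. In castaneus 6 were higher (7.48 percent of all) and 1 was lower (6 percent of all), where 13.5 percent were called either way. Cyp2d26 read 3132 and 2486 in musculus, 773 and 836 in domesticus and 509 and 511 in castaneus. The differences were -1.76 ± 0.17 (adjusted p = 1.3e-05) and -2.38 ± 0.17 (adjusted p = 1.07e-06), with males of musculus apart from all others. Cyp2f2, known for activating naphthalene in the airway, read 111 and 152 in musculus, 572 and 727 in domesticus and 698 and 713 in castaneus. It was higher by 2.07 ± 0.25 (adjusted p = 8.8e-05) and 2.19 ± 0.25 (adjusted p = 6.01e-05).

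Cyp2c55 was nearly off in the musculus testis, at 9 and 18, and read 624 and 442 in domesticus and 56 and 65 in castaneus. The differences were 3.65 ± 0.27 (adjusted p = 8.95e-07) and 1.05 ± 0.27 (adjusted p = 0.0196), the latter lost without musculus male 1 (0.90), castaneus male 1 (1.12) or castaneus male 2 (0.98) and with an offset of 100 (0.50). The castaneus values are below the testis filter of 84.3, as are those of musculus, and the probe set was tested only through the domesticus cross. Cyp2c70 read 73 and 136 in musculus, 129 and 122 in domesticus and 721 and 888 in castaneus, a difference of 2.66 ± 0.23 in castaneus (adjusted p = 4.58e-06). Cyp4f39 read 261 and 271, 1590 and 1466, and 507 and 1115 in the same order. Its differences were 2.39 ± 0.33 (adjusted p = 0.000264) and 1.40 ± 0.33 (adjusted p = 0.0123), the latter lost without musculus male 1 (1.38), musculus male 2 (1.43) or castaneus male 2 (0.86).

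Cyp1b1, which hydroxylates oestradiol, was called on 1432081_at at 70 and 95 in musculus, 412 and 423 in domesticus and 245 and 283 in castaneus. The differences were 1.99 ± 0.21 (adjusted p = 2.18e-05) and 1.38 ± 0.21 (adjusted p = 0.000503), against 0.43 ± 0.23 (adjusted p = 0.281) and 0.41 ± 0.23 (adjusted p = 0.289) on 1416612_at. The smaller calls were Cyp2s1 (-0.84 ± 0.23) and Cyp4f16 (-0.74 ± 0.22) in domesticus and Cyp2d22 in domesticus (0.74 ± 0.21) and castaneus (0.67 ± 0.21). None of these held throughout: Cyp2s1 was lost without domesticus male 1 (-0.57), musculus male 1 (-0.74) or musculus male 2 (-0.95), and Cyp4f16 and both Cyp2d22 calls were lost whichever of the parental males was left out, with values from -0.83 to -0.65, from 0.59 to 0.89 and from 0.53 to 0.81.

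Hepatocyte marker sums in testis were 257 and 421 in musculus, 389 and 336 in domesticus and 413 and 235 in castaneus, which overlap. In the F1 they were 567 and 2292 (musculus x domesticus), 166 and 192 (domesticus x musculus), 319 and 1176 (musculus x castaneus) and 117 and 640 (castaneus x musculus), and the Cyp2f2 means were 602, 412, 410 and 482.5 in the same order. The sum of 4 Leydig cell genes was 3633 and 4921 in musculus, 7783 and 9262 in domesticus and 11545 and 7148 in castaneus. The sum of 5 genes listed as markers of liver endothelium was 2901 and 3066 in musculus, 945 and 1006 in domesticus and 874 and 894 in castaneus. That list was not drawn up for testis, so the sum does not measure the endothelium there. The part of these markers in the P450 differences, parental or F1, was not tested.

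**Figure D5:**
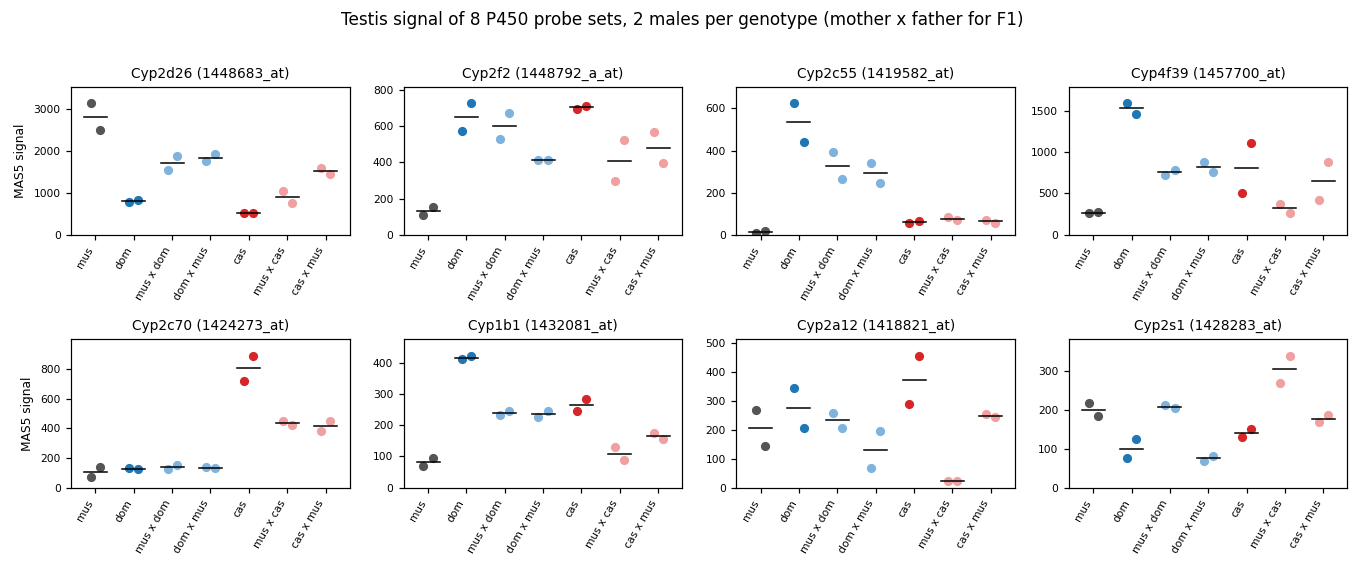
MAS5 signal in testis of 8 probe sets, 1 point per male with the mean of the 2 males as a line, genotypes as in the liver panels. Cyp2a12 reads 22 and 21 in musculus x castaneus males against 256 and 243 in castaneus x musculus males, and Cyp2d26 is highest in musculus.

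The F1 testes gave 2 midparent calls in each cross among 8 and 7 probe sets (6.59 and 34.7 percent of all). Cyp2c55 read 393 and 263 and 343 and 247 in the domesticus-cross F1, above the log2 parental mean by 1.10 ± 0.19 (adjusted p = 0.00272), but at 60.5 and 54.2 on the linear parental scale, where the excess was 0.17 and not called. In the castaneus cross it differed from the log2 mean by 0.66 ± 0.19 (adjusted p = 0.0174), with F1 means of 75.5 and 64 and both parents under the filter of 84.3, so that call rests on signals too dim to be tested on their own. Cyp2f2 did so by 0.68 ± 0.18 in the domesticus cross (adjusted p = 0.0375) and Cyp2c70 by 0.46 ± 0.16 in the castaneus cross (adjusted p = 0.0413); on the linear scale these were 0.33 and -0.08, neither called. On that scale 30.9 percent of the castaneus-cross probe sets were called, with Cyp2c55 (0.57, adjusted p = 0.0435) and Cyp2d26 (-0.49, adjusted p = 0.0157) among the members. The Cyp2f2 call was lost without domesticus male 1 (0.59), musculus male 1 (0.59) or any F1 male of the cross (0.59 to 0.76). The Cyp2c55 call of the castaneus cross was lost without musculus male 1 (0.58), castaneus male 1 (0.62), castaneus male 2 (0.69) or musculus x castaneus male 1 (0.61), and the Cyp2c70 call without musculus male 1 (0.29), castaneus male 1 (0.39), musculus x castaneus male 1 (0.44), musculus x castaneus male 2 (0.48) or castaneus x musculus male 2 (0.40).

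Reciprocal F1 testes of the castaneus cross differed at 4 of 29 P450 probe sets, where 28.4 percent of all probe sets were called. Cyp2a12, a steroid hydroxylase, read 22 and 21 with a musculus mother and 256 and 243 with a castaneus mother, where musculus read 268 and 145 and castaneus 291 and 456. The F1 with a musculus mother thus lay below every other castaneus-cross male, by -2.42 ± 0.38 against the reciprocal F1 (adjusted p = 0.000647). Cyp2d26 (-0.73 ± 0.17, adjusted p = 0.00751) was also lower with a musculus mother, and Cyp2s1 (0.68 ± 0.23, adjusted p = 0.0429) and Cyp4v3 (0.62 ± 0.21, adjusted p = 0.0446) were higher. Cyp2a12 alone held in all 8 alternatives: Cyp2d26 was lost without musculus x castaneus male 2 (-0.51) or castaneus x musculus male 1 (-0.67), Cyp2s1 without musculus x castaneus male 1 (0.83), musculus x castaneus male 2 (0.53), castaneus x musculus male 1 (0.61) or castaneus x musculus male 2 (0.75), and Cyp4v3 without musculus x castaneus male 2 (0.42), castaneus x musculus male 1 (0.64) or castaneus x musculus male 2 (0.60). The same F1 with a musculus mother had Leydig cell sums of 13809 and 14470 against 6964 and 5253, and Sertoli cell sums of 19598 and 20738 against 13639 and 12912. The Sertoli list also gave 19116 to 32294 on the liver arrays and 10399 to 13778 on the brain arrays. It is therefore not specific to Sertoli cells. The part of these markers was not tested. In the domesticus cross 0 of 29 were called by limma (0.204 percent of all), with 4 at an unadjusted p under 0.05 (4.88 percent of all). Among these Cyp2s1 read 213 and 205 with a musculus mother and 68 and 82 with a domesticus mother, a difference of 1.18 ± 0.23 (unadjusted p = 0.000195, adjusted p = 0.081).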

How the data were processed

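The authors deposited MAS5 signal intensities, per the submitters' processing notes, for 42 arrays of 14 males; the values are linear whole-number intensities, and the sources used here name no earlier step. Genes were named from the platform annotation of the probe sets, and no gene positions or sequences were used here. The P450 members, the gene lists and the tests were chosen with earlier results of these data known.

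Signals were analysed as log2(signal + 31), 31 being the 20th percentile of all signals. Probe sets with a mean under the 40th percentile of a tissue (a signal of about 100 in brain, 82.4 in liver and 84.3 in testis) were not tested. Limma 3.58.1 in R 4.3.3 (lmFit, eBayes with trend) fitted 7 genotypes to 14 arrays per tissue, with 7 residual degrees of freedom. Contrasts were each subspecies minus musculus; the mean of both F1 minus the parental mean, adjusted over probe sets with a parental call; the F1 outside both parents, adjusted over the others; and the F1 with a musculus mother minus its reciprocal. A fit over all 42 arrays, with the animal as a random block (correlation 0.246), gave tissue differences and whether a subspecies difference depended on tissue. The method was tested on simulated data. Named are members called at an adjusted p under 0.05, by the gene's probe set with the smallest p, up to 10 in each direction in liver, 5 in brain and testis and 6 for F1 contrasts, with the gene's other probe sets beside it. Alternatives were an offset of 100, quantile normalization, no filter, the replicate number as a block, a linear parental mean, probe sets of unique suffix only, and leaving out each array. Few arrays limit the precision, and probe sets of near-identical P450 paralogs may share RNA.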

Additional observations from a re-analysis of the deposited data

Results flagged for a closer look

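The test of whether a subspecies difference was the same in brain, liver and testis used 17 P450 probe sets tested in all 3 tissues. It called 4 in domesticus, where 11.4 percent of all probe sets were called, and 7 in castaneus, where 12.8 percent were.

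Each of the following differed between tissues by this limma interaction test. In domesticus, Cyp4f39 was higher in testis alone (2.39, against -0.32 in brain and -0.10 in liver; adjusted p = 2.39e-06). Cyp2d22 was 1.80 in liver, 0.06 in brain and 0.42 in testis on 1419039_at (adjusted p = 0.000182) and 1.28, 0.44 and 0.74 on 1419040_at (adjusted p = 0.0322). Cyp2d13 was -1.28 in liver, -0.52 in brain and 0.41 in testis on 1431803_at (adjusted p = 0.00114).

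In castaneus, Cyp2c70 was 2.66 in testis, 1.10 in brain and 0.65 in liver (adjusted p = 1.55e-05), and Cyp4f39 was 1.40 in testis, -0.71 in brain and -0.20 in liver (adjusted p = 0.000208). Cyp2d22 was -1.08 in liver, 0.21 in brain and -0.03 in testis on 1419039_at (adjusted p = 0.00516) and -0.50, 0.48 and 0.67 on 1419040_at (adjusted p = 0.000899). Cyp4b1 was 1.16 in liver, 0.58 in brain and -0.59 in testis (adjusted p = 0.00144). Cyp4f13 was 1.01 in liver, -0.24 in brain and 0.98 in testis (adjusted p = 0.0165), and Cyp4v3 0.79 in brain, -0.24 in liver and -0.10 in testis on 1417071_s_at (adjusted p = 0.00192).

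Probe sets too dim in testis were compared between liver and brain only, a test chosen after the data were seen. In domesticus these were Cyp2j6 (adjusted p = 1.74e-09 and 6.3e-05 on its probe sets) and Cyp2u1, at -0.54 in liver and -2.39 in brain (adjusted p = 0.0139). In castaneus they were Cyp2j6 (adjusted p = 1.19e-05), Cyp2j9 (adjusted p = 0.00192) and Cyp4v3 on 1417070_at (adjusted p = 0.000101).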

How the results depend on the processing

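Every alternative named in the methods was run. All 62 single calls kept their direction with no filter (51 still called), an offset of 100 (54) and quantile normalization (54). Of the 7 midparent calls, 1 was still called on the linear scale, 5 were not and Cyp2c70 in testis reversed to -0.081. Leaving out arrays kept the direction in 276 of 276 pairs of a call and a left-out array, and the call itself in 162. These pairs came from leaving out each of the 42 arrays and are not separate analyses. With no filter the domesticus testis calls went from 8 to 5 and the tissue-dependent calls to 21 in domesticus and 23 in castaneus, more probe sets being tested. Quantile normalization left 3 castaneus brain calls. The midparent counts moved as follows: in the domesticus-cross liver 0 without probe sets of ambiguous suffix, 2 with quantile normalization and 3 with an offset of 100; in the castaneus-cross liver 0 on the linear scale and 1 with an offset of 100; in the domesticus-cross testis 1 without ambiguous suffixes, 0 on the linear scale, 1 with quantile normalization and 1 with an offset of 100; in the castaneus-cross testis 1 with quantile normalization and 0 with an offset of 100. Leaving out 1 array gave 0 to 3 castaneus brain calls, 6 to 10 castaneus liver calls, 5 to 6 domesticus testis calls and 1 to 3 reciprocal castaneus-cross testis calls. For the midparent it gave 1 to 3 (castaneus liver), 0 to 2 (castaneus testis), 0 to 1 (domesticus brain), 0 to 2 (domesticus liver) and 1 to 2 (domesticus testis). Except where fewer arrays or more probe sets show it, the cause was not tested.

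The castaneus liver count fell from 15 to 6 without musculus male 1, 9 without musculus male 2 and 6 without castaneus male 2. The domesticus testis count fell to 5 without domesticus male 1, musculus male 1 or musculus male 2. The reciprocal testis count fell from 4 to 1 without musculus x castaneus male 2 and to 2 without either castaneus x musculus male.

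The labels do not say whether males with the same replicate number share more than that number. Their deviations correlated at -0.01 to 0.26 between parents. With the number as a replicate block the domesticus-cross liver midparent count was 2, the domesticus and castaneus liver parental counts were 13 and 13, and 58 of the 62 single calls remained. Dim probe sets near the filter limit what could be detected.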

Other observations

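P450 genes of other families were also tested in liver. Of 15 tested, 3 were higher and 1 lower in domesticus and 3 higher and 2 lower in castaneus. These are counts of genes, with 1 probe set for each; over all probe sets 6.17 and 6.55 percent were called. Cyp17a1, of androgen synthesis, was higher in both (3.83 ± 0.52 with adjusted p = 0.000604, and 2.04 ± 0.52 with adjusted p = 0.0323, limma). Cyp46a1, the cholesterol 24-hydroxylase, was lower in both (-2.50 ± 0.39 with adjusted p = 0.00172, and -1.83 ± 0.39 with adjusted p = 0.0131). The oxysterol hydroxylase Cyp39a1 was higher in domesticus (1.48 ± 0.31, adjusted p = 0.0111) and lower in castaneus (-1.93 ± 0.31, adjusted p = 0.00204). Of the retinoic acid hydroxylases, Cyp26b1 was higher in domesticus (2.43 ± 0.56, adjusted p = 0.0216) and Cyp26a1 in castaneus (3.39 ± 0.63, adjusted p = 0.00552), where Cyp51 of cholesterol synthesis was also higher (1.59 ± 0.26, adjusted p = 0.0022). Both comparisons share the musculus arrays.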
